A study of Homo sapiens with 18 samples.

Results

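HSC-3 and CAL27 cells, both established lines of human oral squamous cell carcinoma, were compared in the state in which neither had received a drug. The comparison rests on 6 of the 18 arrays of the series, the 3 titled HSC-3 DMSO and the 3 titled CAL27 DMSO. DMSO is the solvent of ICG-001, a small molecule that keeps β-catenin from binding the acetyltransferase CBP. Cells of both lines were given 0.1% DMSO alone and were harvested between 48 and 64 h, so the groups differ in the line and share the vehicle. The other arrays hold the same lines on 10 μM ICG-001, with 3 arrays each, and HSC-3 cells given siRNA, and the siRNA arrays were not used. A line stands for 1 tumour, so whatever else differs between the 2 lines cannot be told apart from the line itself. No source used here says that the replicate wells came from separate cultures, and the p-values then measure the spread between wells.

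RNA was read on Affymetrix Human Gene 2.0 ST arrays, and values are log2 intensities after robust multi-array average (RMA) normalization, on which a difference of 1 is a 2-fold difference in signal. All differences below are HSC-3 minus CAL27. The table holds 23786 probesets, 1 for each Entrez gene, of which 22458 could be named. Tested with limma were the 13104 probesets that exceeded the array median on any of the 6 arrays, while 10682 did not. Calls needed a Benjamini-Hochberg adjusted p no higher than 0.01 together with a difference of 1.5-fold or more. The medians of the 6 arrays lay between 4.73 and 4.77. Correlations between arrays of 1 line were 0.995 for each pair in HSC-3 and 0.993 to 0.996 in CAL27, against 0.961 to 0.962 between arrays of different lines.

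Squamous epithelium is built on keratin filaments anchored at desmosomes and hemidesmosomes, and carcinoma cells that arise from it keep parts of this programme to differing degrees. The group means of all 14 measured of 18 squamous markers lay above the array median in both lines. PKP1 in CAL27, at 4.78, was just above it, and under it on replicate 1. Among the 14 were KRT5, the keratin of basal cells, at 12.12 in HSC-3 and 11.56 in CAL27, and SFN, stratifin, at 11.39 in HSC-3 and 10.11 in CAL27. Of the defining markers of other cells, PTPRC, the pan-leukocyte phosphatase CD45, stood at 1.58 in HSC-3 and 1.55 in CAL27, and PECAM1, which joins endothelial cells, at 2.64 in HSC-3 and 2.55 in CAL27. DCN, decorin, of fibroblasts, stood at 1.52 in HSC-3 and 1.58 in CAL27. All 3 were under the array median in both lines. Summed on the linear scale, the 15 measured leukocyte markers gave 407 to 428 in HSC-3 and 680 to 758 in CAL27, the 10 endothelial markers 146 to 158 in HSC-3 and 402 to 451 in CAL27, and the 12 fibroblast markers 232 to 250 in HSC-3 and 318 to 329 in CAL27. Of these 3 lists 11 members were tested, and 4 were called lower and 0 higher in HSC-3, against 15.2% and 15.1% over all tested probesets. CDH5, the cadherin of endothelium, was at 3.83 in HSC-3 and 8.25 in CAL27, CD14, a coreceptor for bacterial lipopolysaccharide, at 3.81 in HSC-3 and 5.56 in CAL27, CD68, a lysosomal glycoprotein, at 7.92 in HSC-3 and 8.98 in CAL27, and COL5A1, a chain of collagen V, at 5.77 in HSC-3 and 7.02 in CAL27. The 18 measured salivary gland and secretory markers summed to 393 to 415 in HSC-3 and 1860 to 2870 in CAL27. All 8 tested were called, 6 lower and 2 higher, or 75% and 25%, against 15.2% and 15.1% over all tested probesets. Above the array median were 4 of the 18 in HSC-3 and 7 in CAL27, so some were tested through CAL27 alone. The 2 called higher were PRR4, a proline-rich protein of saliva, with a difference of 0.97, and TFF3, a trefoil peptide of mucus, with 0.63, and both calls ended without any of several single arrays, with 0 called higher without HSC-3 replicate 2 or CAL27 replicate 3. The part of these lists in the results below was not tested.

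The 2 lines differed at 3977 of the 13104 tested probesets, which is 30.3%. In HSC-3 1979 were higher, or 15.1%, and 1998 were lower, or 15.2%. The median of all differences was 0.022, the median size of a difference was 0.365 and the median standard error 0.0923. The 3 HSC-3 arrays and the 3 CAL27 arrays did not overlap for 9037 probesets, 69% of those tested, so absence of overlap on its own separated few genes from the rest. Differences of at least 4-fold numbered 150 higher and 289 lower among the called genes, and those of at least 16-fold numbered 21 higher and 39 lower in HSC-3. Above the array median on any array of 1 line and on none of the other were 729 probesets in HSC-3 and 743 in CAL27, against 11632 in both lines. The filter also let in genes through 1 line alone and so favoured a difference, and the counts of list members below only describe the lists. The balance between directions depended on the scaling. With the median of 24 tested housekeeping genes set equal on all arrays, the median of all differences was 0.356 and 79.8% of the calls were higher in HSC-3, against 49.8% with the deposited scaling and 39.1% when those genes were aligned gene by gene. No call turned round under either. Under the first, 17 of the called genes named in the text lost their call, namely ALDH1A3, APOBEC3F, B2M, CD47, CDH1, DSG3, GPI, HK2, HLA-B, ITGB6, KLF4, KLK6, KLK8, MIR205, MYC, NLRC5 and WNT7B, and under the second 7 did, CTNNB1, FADD, ITGA6, LTO1, PRR4, STING1 and TFF3.

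Among genes far higher in HSC-3, several encode proteins of the extracellular matrix. PXDN, peroxidasin, which crosslinks collagen IV in basement membranes, had values of 8.59, 8.61 and 8.45 in HSC-3 and 3.02, 2.80 and 2.92 in CAL27, a difference of 5.63 (SE 0.09, adjusted p = 3.36e-08) or 49.7-fold. OLFML3, a secreted olfactomedin-like protein, read 9.07, 9.07 and 9.16 in HSC-3 and 3.76, 3.58 and 3.54 in CAL27, a difference of 5.47 (SE 0.08, adjusted p = 3.36e-08). The microfibril proteins MFAP2 and MFAP5 followed, at 7.66 in HSC-3 and 3.33 in CAL27 for MFAP2 and 7.27 in HSC-3 and 3.40 in CAL27 for MFAP5. For all of these the CAL27 arrays lay below the array median and the HSC-3 arrays several units above it. KRT19, a keratin of simple and ductal epithelium that also marks some basal cells, had 9.99, 10.03 and 9.93 in HSC-3 and 5.01, 4.33 and 4.23 in CAL27, 44.1-fold apart. AKR1C3, which reduces steroid hormones and prostaglandins, read 7.81, 7.70 and 7.79 in HSC-3 and 1.99, 3.82 and 3.17 in CAL27, and its CAL27 arrays were the most scattered of the genes named here, with a difference of 4.77 (SE 0.40, adjusted p = 3.38e-05).

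The rest of the 15 largest positive differences covered varied roles. TRIML2, a tripartite motif-like protein, differed by 5.09, SLC20A2, a sodium-coupled phosphate importer, by 4.69, MACROH2A2, a variant of histone H2A, by 4.22 and AJAP1, a membrane protein of adherens junctions, by 4.11. VGLL1, a cofactor of TEAD transcription factors, had 9.69, 9.50 and 9.60 in HSC-3 and 5.33, 5.72 and 5.39 in CAL27. SFRP5, a secreted antagonist of Wnt proteins, had 8.41, 8.40 and 8.37 in HSC-3 and 4.21, 4.43 and 4.34 in CAL27. In both the 2 groups of arrays were separated by more than 3 units. CLCA2, a regulator of chloride conductance in squamous cells, differed by 4.07. The zinc finger genes ZNF567 and ZNF614, both of chromosome 19, differed by 3.87 and 3.85, while the 111 tested ZNF genes of that chromosome divided into 11 called higher and 19 called lower, a family counted after these values were seen.

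**Figure D1:**
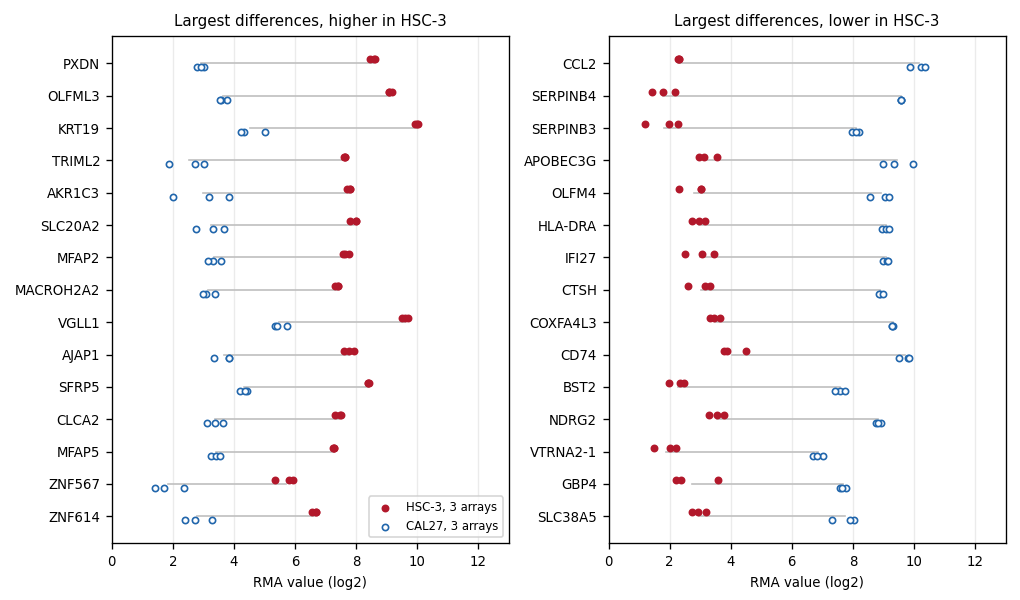
RMA values (log2, horizontal axis) of the 15 named genes with the largest positive (left panel) and the 15 with the largest negative difference (right panel). Filled points are the 3 HSC-3 arrays, open points the 3 CAL27 arrays, and a line joins the 2 means. The arrays of HSC-3 and CAL27 do not overlap for any of these genes, and CCL2 shows the largest gap at -7.86.

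The largest negative differences belonged to genes of varied roles. CCL2, the chemokine that draws monocytes, had 2.27, 2.30 and 2.30 in HSC-3 and 9.86, 10.24 and 10.36 in CAL27, a difference of -7.86 (SE 0.13, adjusted p = 3.43e-08) or 233-fold. In HSC-3 it lay more than 2 units under the array median. SERPINB4 and SERPINB3, inhibitors of cathepsins known as the squamous cell carcinoma antigens, had 1.41, 1.79 and 2.16 in HSC-3 and 9.58, 9.58 and 9.59 in CAL27 for SERPINB4 and 1.19, 1.98 and 2.26 in HSC-3 and 8.22, 7.96 and 8.10 in CAL27 for SERPINB3. These 2 genes are near-identical neighbours whose probes may read each other's transcript, so they are counted with that limit. APOBEC3G, a cytidine deaminase that restricts retroviruses, read 2.96, 3.56 and 3.12 in HSC-3 and 9.97, 9.36 and 8.98 in CAL27. OLFM4, a secreted glycoprotein of mucosal cells, differed by -6.13, CTSH, the protease cathepsin H, by -5.87, COXFA4L3, a homologue of a cytochrome oxidase subunit, by -5.83, NDRG2 by -5.29, the vault RNA gene VTRNA2-1 by -4.95 and the glutamine transporter gene SLC38A5 by -4.80. Because bulk RNA was read, fewer cells with a transcript and less of it per cell cannot be told apart in any of these values.

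Interferons act through receptors that activate STAT and IRF factors, and these bind a short element, the interferon-stimulated response element (ISRE), in the promoters of many genes that restrict viruses. A list of 50 such genes was measured in full. All 50 lay above the array median in CAL27 and 38 did so in HSC-3. In HSC-3, 35 were called lower and 2 higher, with a median difference of -1.12, against 15.2% lower and a median of 0.022 over all tested probesets. IFI27, a mitochondrial protein that is among the most inducible of the class, had 2.51, 3.06 and 3.45 in HSC-3 and 8.98, 9.12 and 9.15 in CAL27, a difference of -6.07 (SE 0.21, adjusted p = 6.1e-07). BST2, tetherin, which holds budding viruses at the cell surface, had 2.35, 2.48 and 1.97 in HSC-3 and 7.58, 7.43 and 7.73 in CAL27. MX1, a dynamin-like GTPase that blocks influenza virus, read 4.69, 4.68 and 4.95 in HSC-3 and 8.71, 8.82 and 8.99 in CAL27, and its neighbour MX2 2.32, 2.28 and 1.63 in HSC-3 and 6.10, 6.0 and 6.47 in CAL27. In each of them the highest HSC-3 array was more than 3 units below the lowest CAL27 array.

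The ISRE core was searched as GAAA, any 2 bases and GAAA again, on either strand, in the RefSeq promoters of build GRCh38.p14, from 250 bases before to 50 after the start of each gene. Of the 28 interferon-stimulated genes called lower with a promoter in that table, 18 held it, or 64.3%, as did 9 of the 13 that were tested and not called lower, or 69.2%. Over all 27305 promoters of the table the share was 3.65%, and over those of the tested genes 2.91%. The shares were 4.96% among all genes called lower and 2.11% among all called higher in HSC-3. Shown are the stretches before the start of 5 called genes with matches there, those with the largest differences, so that the motif can be seen in its place. Capitals mark the core or its reverse complement, TTTC, any 2 bases and TTTC, and in BST2 2 matches overlap.
IFI27, chr14:94110603-94110675, plus strand: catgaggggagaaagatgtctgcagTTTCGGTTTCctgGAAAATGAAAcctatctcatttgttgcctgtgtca
BST2, chr19:17405720-17405785, minus strand: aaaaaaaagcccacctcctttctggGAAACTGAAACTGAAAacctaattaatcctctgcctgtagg
RTP4, chr3:187368318-187368384, plus strand: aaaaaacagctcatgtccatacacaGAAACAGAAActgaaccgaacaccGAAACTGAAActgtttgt
IFI44, chr1:78649746-78649788, plus strand: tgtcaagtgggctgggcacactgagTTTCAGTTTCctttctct
IFIT3, chr10:89327816-89327909, plus strand: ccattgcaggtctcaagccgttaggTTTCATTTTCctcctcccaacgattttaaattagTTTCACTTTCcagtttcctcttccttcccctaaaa
A match describes the letters only, and members without one in this window, such as XAF1, OAS1 and RSAD2, were called lower too.

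Below these stood RTP4, a chaperone of receptors in the Golgi, at -3.42 (SE 0.13, adjusted p = 9.89e-07), and XAF1, which promotes apoptosis, at -3.63 (SE 0.28, adjusted p = 2.26e-05). The effectors that bind foreign RNA ends, IFIT2, IFIT3 and IFIT1, differed by -2.70, -2.30 and -1.87. IFI44, whose action is less well known, had 6.30, 6.22 and 6.22 in HSC-3 and 8.54, 8.57 and 8.56 in CAL27. RSAD2, viperin, which makes a chain-terminating nucleotide, differed by -2.13, CMPK2, its neighbour and a nucleotide kinase, by -2.11, and OAS1, which makes the signal for RNA decay, by -1.87. ISG15, the ubiquitin-like modifier, had 6.27, 6.19 and 6.27 in HSC-3 and 7.79, 7.80 and 7.72 in CAL27, and the enzyme that conjugates it, UBE2L6, 6.18, 6.57 and 6.51 in HSC-3 and 9.22, 9.40 and 9.42 in CAL27. Of the 3 IFITM genes, which block viral entry, IFITM3 stood at 11.61 in HSC-3 and 11.76 in CAL27 and IFITM1 at 10.38 in HSC-3 and 10.52 in CAL27, and only IFITM2 was called, higher by 0.78. EPSTI1, an interferon-inducible epithelial gene, was the other called higher, by 1.22.

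Families that interferon-γ is known to induce were also examined, chosen after the largest differences had been seen. Over all tested probesets 15.1% were called higher and 15.2% lower. Of 5 tested guanylate binding proteins, GTPases that attack the vacuoles of microbes, 3 were called lower, GBP4 with a difference of -4.94, GBP2 with -4.53 and GBP1 with -3.17. GBP3 stood at 8.82 in HSC-3 and 8.85 in CAL27 and GBP6 at 6.20 in HSC-3 and 6.36 in CAL27, and neither was called. All 4 tested APOBEC3 genes were called lower, between -0.74 for APOBEC3F, whose call ended without any of 3 single arrays at adjusted p of 0.0139 to 0.0179, and -6.22 for APOBEC3G. All 4 tested apolipoprotein L genes were called lower too, led by APOL1, the trypanosome lytic factor, with 4.11, 4.47 and 4.04 in HSC-3 and 8.22, 8.20 and 8.14 in CAL27. Members of both families resemble each other closely, and shared signal between them was not tested.

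Receptors and kinases of interferon stand upstream of these genes. Of 20 tested components of interferon signalling, 1 was called higher and 5 lower, or 5% and 25%, against 15.1% and 15.2% over all tested probesets. The median of the 20 was -0.13, which turned to 0.20 when the arrays were set to equal medians of the housekeeping list. IFNGR1, the ligand-binding chain of the interferon-γ receptor, had 7.61, 7.40 and 7.51 in HSC-3 and 9.49, 9.48 and 9.62 in CAL27, a difference of -2.02 (SE 0.08, adjusted p = 1.11e-06). IRF1, a transcription factor it induces, had 6.83, 6.73 and 6.85 in HSC-3 and 8.14, 8.31 and 8.46 in CAL27. The arrays of the lines did not overlap for either gene. IFNAR1, a chain of the type I interferon receptor, stood at 8.53 in HSC-3 and 8.78 in CAL27, and the other chain, IFNAR2, at 6.95 in HSC-3 and 7.0 in CAL27. Neither was called, and nor were the receptor kinases JAK1, at 9.40 in HSC-3 and 9.49 in CAL27, and TYK2, at 6.31 in HSC-3 and 6.34 in CAL27. IFNE, the interferon epsilon of epithelia, was called higher by 1.77, while IFNB1, interferon beta, was under the array median in both lines at 2.86 in HSC-3 and 2.89 in CAL27 and was not tested. Of 18 tested sensors of nucleic acid, 1 was called higher and 8 lower, or 5.56% and 44.4%. AIM2, which senses DNA and starts an inflammasome, had 3.22, 2.91 and 2.86 in HSC-3 and 7.57, 7.13 and 6.83 in CAL27, a difference of -4.18 (SE 0.19, adjusted p = 1.64e-06), and IFIH1 and RIGI, which sense double-stranded RNA, differed by -1.21 and -0.99. STING1, the adaptor for cyclic dinucleotides, was the member called higher, by 0.59, and the call ended without any of 4 single arrays, at adjusted p of 0.0108 to 0.0207.

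Class II molecules present peptides to CD4 T cells, and outside immune cells they depend on the coactivator CIITA, which interferon-γ induces. Of 12 tested genes of this pathway, 0 were called higher and 10 lower, with a median of -1.45, against 15.2% lower over all tested probesets. Above the array median were 2 of the 15 measured members in HSC-3 and 11 in CAL27, so most were tested through CAL27 alone. Of the 2 members above the median on all 6 arrays, 1 was called lower, and their median was -0.80. HLA-DRA, the α chain of HLA-DR, which varies little between people, had 2.97, 3.17 and 2.73 in HSC-3 and 8.97, 9.10 and 9.20 in CAL27, a difference of -6.13 (SE 0.12, adjusted p = 7.87e-08) or 70.1-fold. CD74, which guides class II molecules to the endosome, had 4.51, 3.77 and 3.88 in HSC-3 and 9.50, 9.79 and 9.83 in CAL27. HLA-DMA, which loads the peptide, differed by -2.79, HLA-DPA1 by -1.95 and HLA-DRB1 by -1.81. CIITA itself had 4.16, 4.14 and 4.45 in HSC-3 and 5.48, 5.60 and 5.73 in CAL27, a difference of -1.35 (SE 0.11, adjusted p = 2.99e-05). RFX5, which binds class II promoters in all cells, stood at 6.22 in HSC-3 and 6.50 in CAL27 and was not called. The β chains vary between people and their probes may fit the alleles of the lines unequally, which was not tested.

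Class I molecules and the machinery that feeds them were present in both lines. Of 25 tested genes of class I presentation, 0 were called higher and 11 lower, with a median of -0.61, against 15.2% lower over all tested probesets. With equal housekeeping medians 1 was called higher and 4 lower, with a median of -0.28, and B2M, HLA-B and NLRC5 were no longer called. The test against 1.5-fold itself called 3 lower. HLA-C had 8.82, 8.70 and 8.80 in HSC-3 and 10.02, 10.29 and 10.33 in CAL27, B2M, the light chain of all class I molecules, 11.14, 11.17 and 11.18 in HSC-3 and 12.04, 12.0 and 12.05 in CAL27, and HLA-B differed by -0.69. Each lay far above the array median in both lines. TAPBP, tapasin, which bridges the peptide transporter, differed by -1.26, the immunoproteasome subunit PSMB9 by -0.95 and the class I transactivator NLRC5 by -0.89. The transporter genes themselves were not called, with TAP1 at 8.28 in HSC-3 and 8.34 in CAL27 and TAP2 at 8.0 in HSC-3 and 8.18 in CAL27. HLA-E, a ligand of natural killer receptors, stood at 9.47 in HSC-3 and 9.04 in CAL27 and was the member with the most positive difference, 0.43 (adjusted p = 0.00841), under the fold threshold.

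**Figure D2:**
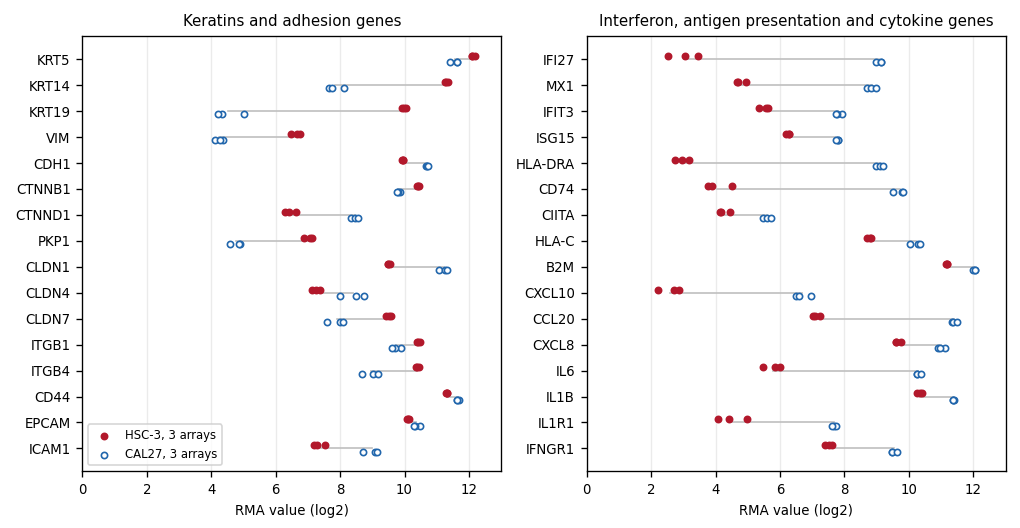
RMA values (log2, horizontal axis) of 16 keratin and adhesion genes (left panel) and 16 interferon, antigen presentation and cytokine genes (right panel), with filled points for the 3 HSC-3 arrays, open points for the 3 CAL27 arrays and a line between the 2 means. The genes of the right panel were chosen among those called lower in HSC-3, and those of the left panel go either way, from KRT19 at 5.46 to CTNND1 at -2.0.

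Chemokines, the secreted proteins that guide leukocytes, were lower in HSC-3 or not called. Of 34 measured chemokine genes 15 were tested. Of these 15, 0 were called higher and 10 lower, against 15.1% and 15.2% over all tested probesets. The median of the 15 was -1.11. Above the array median were 9 of them in HSC-3 and 14 in CAL27, so some were tested through CAL27 alone. Without HSC-3 replicate 2, 1 was called higher. Apart from CCL2, CCL20, which draws dendritic cells and Th17 cells, had 7.01, 7.09 and 7.24 in HSC-3 and 11.32, 11.38 and 11.48 in CAL27, a difference of -4.28 (SE 0.08, adjusted p = 7.87e-08). CXCL10 and CXCL11, ligands of CXCR3 on T cells that interferon-γ induces, had 2.22, 2.70 and 2.85 in HSC-3 and 6.50, 6.58 and 6.96 in CAL27 for CXCL10 and 3.40, 2.74 and 3.84 in HSC-3 and 7.50, 7.26 and 7.38 in CAL27 for CXCL11. In HSC-3 both stood under the array median. CX3CL1, fractalkine, differed by -3.35. The ligands of CXCR2 on neutrophils divided, as CXCL2 differed by -1.89 and CXCL8 by -1.36 but CXCL1, at 10.02 in HSC-3 and 10.28 in CAL27, was not called.

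Interleukin 1 genes showed opposite calls for the 2 receptors. IL1R1, the signalling receptor, had 4.07, 4.43 and 4.97 in HSC-3 and 7.66, 7.74 and 7.60 in CAL27, a difference of -3.18 (SE 0.20, adjusted p = 9.16e-06). IL1R2, a decoy that binds the ligand without a signal, had 7.90, 7.83 and 7.84 in HSC-3 and 4.84, 4.99 and 4.60 in CAL27, a difference of 3.04 (SE 0.10, adjusted p = 5.79e-07). Thus each line was high for 1 of the 2 receptors, with no overlap of arrays. The ligands IL1A and IL1B were bright in both lines and called lower, with differences of -1.44 and -1.04, whereas IL18 was called higher by 1.78. CASP1, the protease that matures IL1B and IL18, differed by -2.16. Of 15 tested genes of this family, 2 were called higher and 7 lower, or 13.3% and 46.7%, against 15.1% and 15.2% over all tested probesets.

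Other cytokines included IL6, which signals through STAT3 and had 5.46, 5.85 and 6.01 in HSC-3 and 10.26, 10.25 and 10.38 in CAL27, a difference of -4.52 (SE 0.14, adjusted p = 3.93e-07). LIF, of the same family, differed by -3.47, and OSMR and LIFR, receptors for members of that family, by -0.98 and -1.31. TNFSF10, the death ligand TRAIL, had 6.24, 6.37 and 6.53 in HSC-3 and 9.78, 9.92 and 9.97 in CAL27, and CD40, a receptor of the TNF family, 2.71, 2.69 and 2.81 in HSC-3 and 6.13, 6.31 and 6.59 in CAL27. All of these were separated between lines. TGFB1 and TGFB2, both transforming growth factors β, were called in opposite directions, TGFB1 by 1.38 and TGFB2 by -1.85. Of 41 tested cytokines, growth factors and their receptors, 6 were called higher and 15 lower, or 14.6% and 36.6%, against 15.1% and 15.2% over all tested probesets. Of the checkpoint genes, IDO1, which breaks down tryptophan, differed by -3.36 and CD47, the signal against phagocytosis, by -0.89. PDCD1LG2, which encodes PD-L2, was called higher by 1.22, and CD274, which encodes PD-L1, was not called at 7.05 in HSC-3 and 6.98 in CAL27 (95% confidence interval -0.10 to 0.22 for the difference).

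Secreted proteins of mucosal defence were called in 1 direction. All 13 tested members of 26 measured were called lower in HSC-3, with a median of -2.44, against 15.2% lower over all tested probesets. Above the array median were 12 of them in HSC-3 and 13 in CAL27. The salivary gland and secretory markers, some of them tested through CAL27 alone, had a median of -2.54. They shared 3 tested genes with the mucosal defence list, SLPI, PIGR and WFDC2. SLPI, an inhibitor of neutrophil elastase, had 5.94, 6.06 and 6.28 in HSC-3 and 9.02, 9.83 and 9.96 in CAL27, and WFDC2, of the same fold, 6.79, 6.81 and 6.52 in HSC-3 and 9.78, 10.27 and 10.39 in CAL27. S100A8 and S100A9, which form calprotectin, had 7.63, 7.76 and 7.67 in HSC-3 and 9.88, 10.39 and 10.47 in CAL27 for S100A8 and 7.94, 7.97 and 7.91 in HSC-3 and 8.95, 9.15 and 9.36 in CAL27 for S100A9. Both calprotectin genes were well above the array median in each line. LCN2, lipocalin, which binds bacterial siderophores, differed by -2.0, S100A7, psoriasin, by -2.92, PI3, elafin, by -2.44, and RNASE7, a bactericidal ribonuclease, by -2.30. The serum amyloid genes SAA2 and SAA1 differed by -4.36 and -1.27 but are close copies. Of complement, CFB and C3, which drive the alternative pathway, had 7.16, 7.36 and 7.30 in HSC-3 and 10.45, 10.49 and 10.60 in CAL27 for CFB and 9.38, 9.32 and 9.40 in HSC-3 and 11.11, 11.28 and 11.33 in CAL27 for C3. PIGR, the receptor that carries IgA into saliva, and PIP, a protein of salivary secretion, differed by -2.60 and -4.29.

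**Figure D3:**
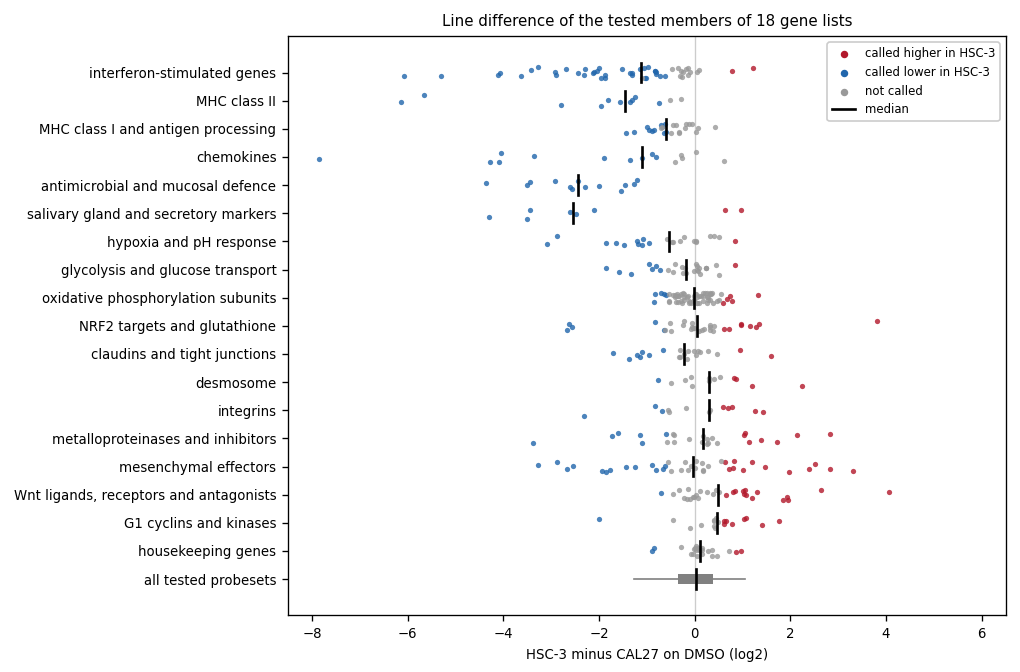
HSC-3 minus CAL27 on DMSO (log2, horizontal axis) for each tested member of 18 gene lists, coloured by call, with a bar at the median of the list. The lowest row gives all 13104 tested probesets as the median (bar), the middle 50% (thick line) and the range from the 5th to the 95th percentile (thin line). The interferon, class II, chemokine and mucosal defence lists lie to the left of it, and the Wnt list to the right with a median of 0.48.

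Both lines carried keratins of the basal layer. KRT5, which pairs with KRT14 in basal cells, had 12.18, 12.09 and 12.08 in HSC-3 and 11.42, 11.62 and 11.63 in CAL27, a difference of 0.56 (SE 0.08, adjusted p = 0.000683) that fell just short of the fold threshold. KRT14, its partner, had 11.36, 11.29 and 11.26 in HSC-3 and 7.64, 7.76 and 8.13 in CAL27, a difference of 3.46 (SE 0.12, adjusted p = 6.74e-07) or 11-fold. KRT15, another type I keratin of basal cells, was called lower, with 6.23, 5.90 and 6.29 in HSC-3 and 7.09, 7.16 and 7.31 in CAL27. The paired simple keratins were not called, with KRT8 at 6.95 in HSC-3 and 6.71 in CAL27 and KRT18 at 9.92 in HSC-3 and 9.71 in CAL27, while KRT80 was called lower, with a difference of -1.50 and KRT19 far higher. None of the 13 measured keratins of differentiated layers, such as KRT1, KRT4, KRT10 and KRT13, passed the array median in either line. KRT13, the keratin of normal oral mucosa, stood at 2.85 in HSC-3 and 2.75 in CAL27.

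Late differentiation genes were low. Of 45 measured members of the cornified envelope list, 13 were tested, with 4 called higher and 1 lower. Of the tested members these were 30.8% and 7.69%, against 15.1% and 15.2% over all tested probesets. TMPRSS11E, a membrane serine protease of squamous epithelium, had 4.51, 4.78 and 4.7 in HSC-3 and 2.64, 2.65 and 2.57 in CAL27. FLG, filaggrin, which bundles keratin, differed by 1.18 from means of 4.67 in HSC-3 and 3.49 in CAL27, and CALML3, a calmodulin-like protein of epithelium, by -1.52. These lay close to the array median in at least 1 line. Kallikreins, which cleave desmosomes during shedding, divided, with 3 of 7 tested called higher and 3 lower. These were 42.9% each, against 15.1% and 15.2% over all tested probesets. KLK10 had 9.05, 9.09 and 8.91 in HSC-3 and 6.91, 7.32 and 7.12 in CAL27, and KLK7, KLK6 and KLK8 were called lower, with differences of -1.08, -0.75 and -0.75. S100A14 and S100A16, calcium-binding proteins of epithelium, were called higher by 1.80 and 1.31, unlike the calprotectin genes.

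Transcription factors of the epithelial lineage were called in both directions. Of 29 tested factors, 6 were called higher and 7 lower, or 20.7% and 24.1%, not far from the 15.1% and 15.2% over all tested probesets. EHF and ELF3, ETS factors of epithelial differentiation, had 10.23, 10.17 and 10.14 in HSC-3 and 11.54, 11.52 and 11.48 in CAL27 for EHF and 7.11, 7.02 and 7.02 in HSC-3 and 8.18, 8.56 and 8.70 in CAL27 for ELF3. GRHL1, a grainyhead factor of the epidermis, differed by -1.63, whereas GRHL2 was not called at 8.84 in HSC-3 and 8.48 in CAL27. KLF5 and KLF4, Krüppel-like factors of proliferating and of differentiating layers, were called in opposite directions by 0.85 and -0.82. SOX15, BNC1, the basonuclin of basal cells, and TFAP2A were called higher by 1.31, 0.92 and 0.72. Of 16 tested HOX genes, which record position along the body axis, 2 were called higher and 5 lower. These were 12.5% and 31.2%, against 15.1% and 15.2% over all tested probesets. HOXB7 had 4.40, 4.72 and 5.16 in HSC-3 and 6.98, 6.43 and 7.02 in CAL27, and HOXD10 differed by -1.33.

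Epithelial to mesenchymal transition, the loss of cell contacts in favour of motility, is driven by a small set of transcription factors. Of 8 tested factors of this set, 3 were called higher and 0 lower, against 15.1% and 15.2% over all tested probesets. Called were TWIST1, at 6.04 in HSC-3 and 5.08 in CAL27, TCF4, at 5.60 in HSC-3 and 4.75 in CAL27, and SNAI2, which encodes Slug and had 11.02, 10.89 and 10.96 in HSC-3 and 9.99, 10.39 and 10.40 in CAL27. Without CAL27 replicate 1 the difference of SNAI2 was 0.56, under the fold threshold. None of the 3 kept its call in the limma test against 1.5-fold itself. The adjusted p there was 0.119 for TWIST1, 0.294 for TCF4 and 0.767 for SNAI2. On ICG-001 1 of the 8 factors was called higher and 0 lower. Under the array median in both lines were ZEB1, at 3.12 in HSC-3 and 3.20 in CAL27, ZEB2, at 4.13 in HSC-3 and 3.83 in CAL27, and SNAI1, at 3.94 in HSC-3 and 4.53 in CAL27. VIM, the filament protein of mesenchymal cells, had 6.48, 6.67 and 6.74 in HSC-3 and 4.35, 4.12 and 4.26 in CAL27, a difference of 2.39 (SE 0.10, adjusted p = 1.11e-06) or 5.23-fold. The CAL27 arrays lay under the array median for VIM and the HSC-3 arrays above it.

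Of the 38 tested mesenchymal effectors, 12 were called higher and 13 lower, or 31.6% and 34.2%, against 15.1% and 15.2% over all tested probesets. Beside VIM, L1CAM, an adhesion molecule of nerve and invasive carcinoma, had 7.88, 7.96 and 7.72 in HSC-3 and 4.59, 4.43 and 4.61 in CAL27, and SERPINE2, a protease inhibitor, 8.62, 8.60 and 8.55 in HSC-3 and 6.27, 6.11 and 5.84 in CAL27. FSTL1 was called higher by 1.98 and IGFBP7 by 1.19. On the other side, PDPN, podoplanin, had 4.54, 4.65 and 4.28 in HSC-3 and 7.64, 7.69 and 7.97 in CAL27, LOX, which crosslinks collagen, 3.52, 3.71 and 3.58 in HSC-3 and 6.13, 6.62 and 6.70 in CAL27, and CCN2, a matrix protein induced by YAP and TGF-β, 7.70, 7.75 and 7.65 in HSC-3 and 10.28, 10.51 and 10.36 in CAL27. All 3 were separated between the lines. IGFBP3, which binds insulin-like growth factors, was among the brightest genes of CAL27, at 9.74 in HSC-3 and 12.29 in CAL27. FN1, fibronectin, was called lower, with a difference of -1.86. CDH2, N-cadherin, was not called at 8.11 in HSC-3 and 7.83 in CAL27, nor was THBS1, thrombospondin, at 11.99 in HSC-3 and 12.27 in CAL27.

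Cadherins hold epithelial cells together through catenins, and β-catenin also carries Wnt signals to the nucleus. CDH1, which encodes E-cadherin, had 9.96, 9.97 and 9.92 in HSC-3 and 10.68, 10.71 and 10.74 in CAL27, a difference of -0.76 (SE 0.06, adjusted p = 3.81e-05). CTNNB1, which encodes β-catenin, had 10.38, 10.43 and 10.41 in HSC-3 and 9.86, 9.80 and 9.76 in CAL27, a difference of 0.60 (SE 0.07, adjusted p = 0.000147). Each difference was under 1, and the 2 opposite calls held together under neither housekeeping scaling, since that of CDH1 was -0.42 with equal housekeeping medians and that of CTNNB1 0.51 gene by gene, both under the fold threshold. Without CAL27 replicate 3 the difference of CTNNB1 was 0.58, also under it. CTNND1, p120 catenin, which keeps cadherins at the membrane, had 6.42, 6.29 and 6.64 in HSC-3 and 8.33, 8.46 and 8.57 in CAL27, a difference of -2.0 (SE 0.11, adjusted p = 4.1e-06) or 4-fold, while CTNNA1, α-catenin, was not called at 8.73 in HSC-3 and 9.06 in CAL27. CDH3, P-cadherin of basal cells, was bright in both lines at 10.87 in HSC-3 and 10.94 in CAL27 and had an interval for the difference of -0.23 to 0.09. CREBBP, which encodes CBP, was not called either, at 9.51 in HSC-3 and 9.63 in CAL27.

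Desmosomes, which tie keratin filaments to the membrane, had 13 tested members, of which 4 were called higher and 1 lower. These were 30.8% and 7.69%, against 15.1% and 15.2% over all tested probesets. The median of the list was 0.30, which was 0.63 with equal housekeeping medians and 0.20 with the gene by gene alignment. PKP1, plakophilin of the upper layers, had 6.86, 7.14 and 7.05 in HSC-3 and 4.59, 4.89 and 4.85 in CAL27, a difference of 2.24 (SE 0.11, adjusted p = 2.53e-06). PKP2 had 10.92, 10.89 and 10.91 in HSC-3 and 9.68, 9.75 and 9.72 in CAL27, and DSP, desmoplakin, which holds the filaments, 10.47, 10.58 and 10.51 in HSC-3 and 9.69, 9.73 and 9.69 in CAL27. Only DSG3, the desmoglein that is the target of pemphigus antibodies, was called lower, with a difference of -0.77, and JUP, plakoglobin, was not called at 10.04 in HSC-3 and 9.76 in CAL27. Of 21 tested tight junction genes, 2 were called higher and 7 lower, or 9.52% and 33.3%, with a median of -0.23, which turned to 0.10 with equal housekeeping medians. CLDN1, the main claudin of squamous barriers, had 9.49, 9.55 and 9.48 in HSC-3 and 11.08, 11.26 and 11.32 in CAL27, a difference of -1.71 (SE 0.08, adjusted p = 2.47e-06). CLDN4 had 7.39, 7.13 and 7.25 in HSC-3 and 8.01, 8.49 and 8.73 in CAL27 and CLDN7 9.51, 9.42 and 9.57 in HSC-3 and 7.60, 8.01 and 8.10 in CAL27. The claudins therefore did not share a direction. Neither OCLN, occludin, at 7.14 in HSC-3 and 7.31 in CAL27, nor TJP1, the scaffold ZO-1, at 9.87 in HSC-3 and 10.18 in CAL27, was called.

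Integrins anchor cells to the matrix, and α6β4 does so in hemidesmosomes. ITGB4, its β chain, had 10.43, 10.38 and 10.35 in HSC-3 and 8.67, 9.03 and 9.16 in CAL27, a difference of 1.43 (SE 0.12, adjusted p = 4.4e-05), and ITGA6, its α chain, 11.36, 11.40 and 11.39 in HSC-3 and 10.86, 10.81 and 10.70 in CAL27. Without CAL27 replicate 3 the difference of ITGA6 was 0.55, under the fold threshold. ITGB1, which pairs with most α chains, had 10.48, 10.40 and 10.41 in HSC-3 and 9.90, 9.71 and 9.60 in CAL27, and ITGA3, a laminin receptor, differed by 0.79. These chains were among the brighter genes of both lines. ITGA4, which binds VCAM1, was under the HSC-3 median at 2.62 in HSC-3 and 4.93 in CAL27, and ITGB6, which activates latent TGF-β, differed by -0.82. Of 13 tested integrin genes, 5 were called higher and 3 lower, or 38.5% and 23.1%, against 15.1% and 15.2% over all tested probesets. Basement membrane collagen was lower in HSC-3, where COL4A1 and COL4A2, chains of collagen IV transcribed from 1 locus, had 4.26, 4.04 and 4.13 in HSC-3 and 6.44, 6.38 and 6.58 in CAL27 for COL4A1 and 4.94, 4.74 and 4.78 in HSC-3 and 7.25, 7.30 and 7.29 in CAL27 for COL4A2. HSPG2, perlecan, differed by -1.80. COL7A1, of anchoring fibrils, and the laminin chains LAMC1 and LAMB1 were called higher by 1.06, 0.80 and 0.71, and LAMB3 was not called at 9.78 in HSC-3 and 9.82 in CAL27. Of 11 tested laminin and hemidesmosome genes, 3 were called higher and 3 lower. These were 27.3% each, against 15.1% and 15.2% over all tested probesets. Peroxidasin, which acts on collagen IV, had the opposite direction to both collagen IV chains.

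Metalloproteinases, which cut matrix, were called both ways, with 7 higher and 6 lower of 25 tested. These were 28% and 24%, against 15.1% and 15.2% over all tested probesets. The gelatinases MMP2 and MMP9 had 7.60, 7.65 and 7.52 in HSC-3 and 4.88, 4.56 and 4.87 in CAL27 for MMP2 and 6.23, 6.07 and 6.17 in HSC-3 and 4.36, 4.77 and 4.16 in CAL27 for MMP9. MMP14, the membrane enzyme that activates MMP2, had 10.10, 10.10 and 9.98 in HSC-3 and 9.14, 8.96 and 8.95 in CAL27. All 3 were higher in HSC-3 with no overlap. MMP1, interstitial collagenase, and MMP3, stromelysin, were called higher by 2.13 and 1.38, and the inhibitor TIMP1 by 1.14. MMP7, matrilysin, MMP13, collagenase-3, and ADAM28 were called lower, with differences of -1.72, -1.15 and -3.37. ICAM1, the ligand of leukocyte integrins, had 7.53, 7.18 and 7.30 in HSC-3 and 8.71, 9.07 and 9.15 in CAL27. Bright in both lines and not called were CD44, the hyaluronan receptor, at 11.31 in HSC-3 and 11.65 in CAL27, and EPCAM, an epithelial adhesion molecule, at 10.11 in HSC-3 and 10.37 in CAL27. The guidance molecule EFNB1, ephrin-B1, and the receptor EPHB4 were called higher by 2.39 and 1.03, and EPHA4 by 2.11.

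Of 64 tested subunits of oxidative phosphorylation, 5 were called higher and 5 lower (3 lower without HSC-3 replicate 2 or CAL27 replicate 3), and of the 20 tested enzymes of the tricarboxylic acid cycle 2 were called higher and 3 lower, against 30.3% called among all tested probesets. Of 22 tested genes of the hypoxia and pH response, 1 was called higher (2 without HSC-3 replicate 3) and 10 lower, or 4.55% and 45.5%. Over all tested probesets the shares were 15.1% and 15.2%. The list had a median of -0.53 that was -0.20 with equal housekeeping medians. CA2, a carbonic anhydrase, had 3.86, 3.82 and 3.86 in HSC-3 and 7.19, 6.79 and 6.83 in CAL27, PDK1, which diverts pyruvate from mitochondria, 7.41, 7.44 and 7.53 in HSC-3 and 9.35, 9.32 and 9.31 in CAL27, and HIF1A itself 10.38, 10.44 and 10.38 in HSC-3 and 11.39, 11.54 and 11.54 in CAL27. SLC2A1, the glucose transporter GLUT1, was the exception, called higher with 10.29, 10.25 and 10.22 in HSC-3 and 9.35, 9.40 and 9.49 in CAL27. The HIF targets VEGFA, at 8.20 in HSC-3 and 8.68 in CAL27, and NDRG1, at 7.88 in HSC-3 and 7.91 in CAL27, were not called. SLC2A1 was also the member called higher of the 27 tested of glycolysis (2 without HSC-3 replicate 3), or 3.7%, and 7 were lower, or 25.9%. PFKL, GPI and HK2 were among the 7, with differences of -0.95, -0.89 and -0.72. GAPDH, at 12.02 in HSC-3 and 11.98 in CAL27, and PKM, at 10.83 in HSC-3 and 10.78 in CAL27, were not called. TKT, transketolase of the pentose phosphate pathway, was called higher by 0.96.

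Detoxifying enzymes showed gaps of several units in either direction. ABCC2, a pump for conjugated drugs and bilirubin, had 8.03, 8.06 and 8.05 in HSC-3 and 4.13, 4.57 and 4.01 in CAL27, a difference of 3.81 (SE 0.14, adjusted p = 6.85e-07), and NQO1, the quinone reductase that NRF2 induces, 10.87, 10.82 and 10.83 in HSC-3 and 9.45, 9.48 and 9.57 in CAL27. The glutathione transferases GSTM3, GSTM4 and GSTT1 had 3.41, 3.40 and 3.36 in HSC-3 and 6.20, 5.82 and 5.84 in CAL27 for GSTM3, 3.41, 3.04 and 3.04 in HSC-3 and 5.44, 5.81 and 6.26 in CAL27 for GSTM4 and 5.05, 4.13 and 3.81 in HSC-3 and 6.72, 7.30 and 6.81 in CAL27 for GSTT1. In HSC-3 the GSTM genes lay under the array median on all arrays and GSTT1 on 2 of 3. The GSTM genes are near copies, and GSTT1 is absent from the genome of many people, which was not tested here. GSTP1, the transferase of squamous cells, was bright and not called at 11.40 in HSC-3 and 11.09 in CAL27. Of the aldehyde dehydrogenases, ALDH1L2, of mitochondrial folate metabolism, had 2.31, 2.76 and 2.47 in HSC-3 and 6.76, 6.57 and 6.94 in CAL27, and ALDH2 and ALDH1A3, which makes retinoic acid, were called lower, with differences of -1.18 and -0.82, in contrast to AKR1C3.

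Among lipid mediators, ALOX5, which starts leukotriene synthesis, had 3.42, 3.68 and 4.11 in HSC-3 and 6.86, 7.14 and 7.24 in CAL27. PTGS2 and PTGS1, the 2 cyclooxygenases, were called in opposite directions, with 4.85, 5.03 and 5.34 in HSC-3 and 7.03, 7.06 and 7.21 in CAL27 for PTGS2 and 6.90, 6.83 and 6.96 in HSC-3 and 5.66, 5.78 and 5.66 in CAL27 for PTGS1. The prostaglandin E2 receptors PTGER4 and PTGER2 were called lower, with differences of -2.58 and -1.24, as was PLA2G4A, which frees arachidonic acid, by -1.38. Of fatty acid genes, ACSL5, an acyl-CoA synthetase, had 4.30, 3.90 and 4.49 in HSC-3 and 7.76, 7.80 and 7.73 in CAL27, and ELOVL4 and SCD5 differed by -2.27 and 1.85, whereas FASN, fatty acid synthase, was not called at 7.68 in HSC-3 and 7.85 in CAL27. In retinoid metabolism, RARB, a receptor that retinoic acid induces, had 3.54, 3.57 and 3.60 in HSC-3 and 6.59, 6.46 and 6.03 in CAL27, and CRABP2, which carries retinoic acid to the nucleus, 7.35, 7.30 and 7.34 in HSC-3 and 5.41, 5.63 and 5.67 in CAL27. CYP24A1, which breaks down vitamin D, differed by -2.81. Of amino acid genes, CBS and CTH, successive enzymes of transsulphuration, were called in opposite directions, by -2.11 and 1.80, and GLUL, glutamine synthetase, was called lower, with a difference of -1.90.

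Wnt proteins bind Frizzled receptors and stabilise β-catenin, or act apart from it through other routes. Of 30 tested genes of Wnt ligands, receptors and antagonists, 14 were called higher and 1 lower, with a median of 0.48 that was 0.81 with equal housekeeping medians, against 15.1% called higher among all tested probesets. WNT5A and WNT5B, ligands that mostly act without β-catenin, had 7.71, 7.99 and 7.72 in HSC-3 and 5.13, 5.12 and 5.22 in CAL27 for WNT5A and 6.40, 5.90 and 6.30 in HSC-3 and 4.65, 4.10 and 4.32 in CAL27 for WNT5B. WNT7A had 8.54, 8.41 and 8.49 in HSC-3 and 6.43, 6.68 and 6.59 in CAL27, and WNT10A differed by 1.03. The calls spanned roles, with the receptors FZD2, FZD3 and LRP6 called higher by 1.96, 1.19 and 1.05 and the antagonists SFRP5, DKK3 and DKK1 by 4.07, 1.0 and 0.81. WNT7B was the member called lower, with a difference of -0.70, and without CAL27 replicate 1 there were 2 such members. In the nucleus LEF1, which binds β-catenin at its targets, had 5.46, 5.37 and 5.38 in HSC-3 and 2.48, 3.04 and 2.92 in CAL27, a difference of 2.59 (SE 0.14, adjusted p = 4.11e-06), and TCF7L1 differed by 1.0.

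CCND1, cyclin D1, had 11.15, 11.10 and 11.07 in HSC-3 and 9.52, 9.81 and 9.79 in CAL27, a difference of 1.40 (SE 0.09, adjusted p = 1.19e-05), and CCND2 had 10.27, 10.32 and 10.16 in HSC-3 and 9.15, 9.23 and 9.26 in CAL27. The E cyclins were called in opposite directions, CCNE1 by -2.01 and CCNE2 by 1.77. Of 18 tested G1 cyclins and kinases, 8 were called higher and 1 lower, while among 47 genes of DNA replication 7 were called higher and 1 lower, and among 55 of mitosis 7 higher and 5 lower. These were 44.4%, 14.9% and 12.7% called higher, and only the first of the 3 was above the 15.1% over all tested probesets. MYC was called lower, with a difference of -0.78. HELLS, a remodeler of replicating chromatin, was not called at 8.85 in HSC-3 and 9.11 in CAL27. Feedback genes of MAPK signalling were called in both directions. SPRY4, DUSP6 and ETV4, induced by ERK, had 6.40, 6.49 and 6.43 in HSC-3 and 3.77, 3.52 and 3.96 in CAL27 for SPRY4, 9.24, 9.23 and 9.25 in HSC-3 and 7.74, 8.04 and 7.88 in CAL27 for DUSP6 and 7.57, 7.43 and 7.49 in HSC-3 and 5.09, 5.71 and 5.98 in CAL27 for ETV4. Against these, DUSP5 and DUSP1, also phosphatases of MAP kinases, were called lower, with differences of -3.11 and -2.15, and the early genes EGR1, FOSB and JUN by -1.68, -1.83 and -1.38. Of 7 tested EGFR family receptors and ligands, 3 were called higher and 1 lower. These were 42.9% and 14.3%, against 15.1% and 15.2% over all tested probesets. The lower one was EREG, epiregulin, a ligand of EGFR, with 5.37, 5.39 and 5.70 in HSC-3 and 8.89, 8.99 and 9.18 in CAL27. EGFR itself was not called at 11.10 in HSC-3 and 10.99 in CAL27. BMP4, a ligand that acts through SMAD factors, differed by 2.78 and ID3 and ID1, which BMP proteins induce, by -2.68 and -1.86.

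MicroRNA genes were read by probes for their precursor genes, which say nothing of the mature form. Of 283 tested, 24 were called higher and 33 lower, against 15.1% and 15.2% over all tested probesets. MIR221 and MIR222, which lie together on the X chromosome, had 5.72, 5.81 and 5.71 in HSC-3 and 7.07, 7.19 and 7.02 in CAL27 for MIR221 and 4.43, 4.32 and 4.40 in HSC-3 and 5.81, 6.15 and 5.85 in CAL27 for MIR222. MIR205, a marker of squamous epithelium, had 8.59, 8.62 and 8.56 in HSC-3 and 9.42, 9.44 and 9.36 in CAL27. All 3 were called lower, and their mature RNAs (RefSeq, GRCh38.p14) are shown with bases 2 to 8, the seed that selects targets, in capitals to show that the pair from the X chromosome share it.
hsa-miR-221-3p: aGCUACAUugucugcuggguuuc
hsa-miR-222-3p: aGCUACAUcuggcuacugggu
hsa-miR-205-5p: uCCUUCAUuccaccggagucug
The first 2 have the seed GCUACAU in common, and the third has CCUUCAU. MIR31HG, the host transcript of another microRNA of oral carcinoma, was called higher by 1.87. MIR21 was not called, at 8.21 in HSC-3 and 8.39 in CAL27.

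Runs of at least 4 consecutive tested genes called in 1 direction numbered 52 higher and 46 lower, and held 487 of the 3766 calls placed on a chromosome, or 12.9%. How many such runs arise without regard to position was not computed. The longest lay on chromosome 11, where 15 genes from UBE2L6 to MRPL16 were all lower, CTNND1 among them, with a median of -1.16. On chromosome 14 a run of 14 genes held NDRG2 and RNASE7, and on chromosome 3 another of 14 held PTX3. MX1 and MX2 lay in a run of 5 on chromosome 21 with BACE2, TMPRSS2 and RIPK4, none of which is on the interferon list, and IL6 closed a run of 6 on chromosome 7. Among runs higher in HSC-3, 8 genes of chromosome 4 began with TMPRSS11E, and 7 genes of chromosome 11 took in MYEOV, CCND1, LTO1, ANO1 and FADD, a neighbourhood known to be amplified in oral carcinoma. These had differences of 0.64 to 1.71. DNA copy number was not measured.

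Whole chromosomes leaned as well. On chromosome 4, 44.3% of the 436 tested genes were called higher and 10.6% lower, with a median difference of 0.52. On chromosome 17, 26% were called higher and 6.4% lower. Chromosome 21 went the other way, with 4.51% called higher and 27.8% lower of 133 tested genes and a median of -0.347, and chromosome 15 had 2.54% higher and 20.6% lower. On chromosome 7, 6.8% were higher and 27.4% lower. These shares were computed with the deposited scaling only, and another scaling would change them.

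**Figure D4:**
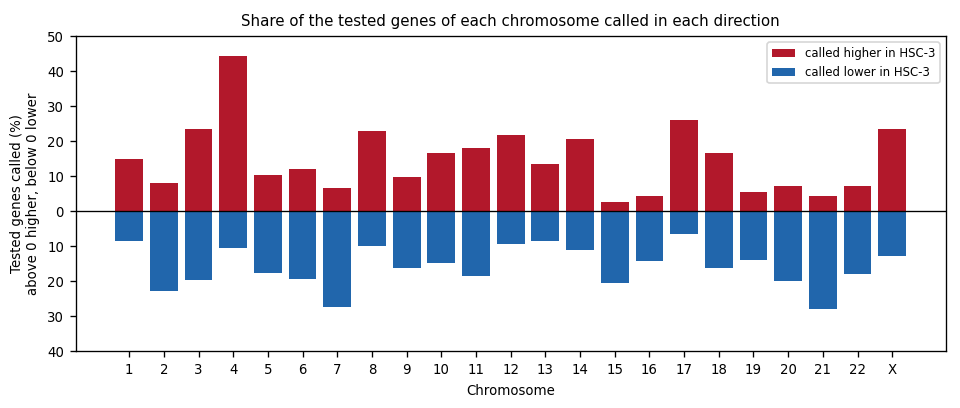
Percent (vertical axis) of the tested genes of each chromosome (horizontal axis) that were called higher in HSC-3 (bars above 0) or lower (bars below 0). Chromosome 4 has the tallest bar above 0, at 44.3%, and chromosome 21 the tallest below, at 27.8%.

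The same 2 lines on ICG-001 were measured in other wells, which share no array with the DMSO wells, so they show which differences were present there too. On ICG-001 4110 of the 13104 probesets were called, or 31.4%, with 2103 higher, or 16%, and 2007 lower, or 15.3%. Called in the same direction on both were 2539, which is 63.8% of the DMSO calls and 61.8% of the ICG-001 calls, and 39 were called in opposite directions. The sign was shared by 93.7% of the genes called on DMSO and by 78% of all tested. The treatment differs between the 2 sets, so this is no plain repeat.

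Several lineage and antigen presentation genes were called in the same direction on ICG-001. KRT19 differed there by 5.44, KRT14 by 3.38, PXDN by 6.86, VIM by 2.27, HLA-DRA by -6.33 and CD74 by -6.61. Of the tested class II genes 11 were called lower on ICG-001, 9 of them also on DMSO, and of the interferon-stimulated genes 30 were lower and 4 higher, 29 being called in the same direction on both. CTNND1 differed by -1.82 and PKP1 by 2.70. Of the 13 tested mucosal defence genes, 6 were called lower on ICG-001 and 1 higher, with a median of -0.35. S100A8 differed there by 0.09, S100A7 by 0.70, SAA2 by -0.35 and LCN2 by 0.36, none of which was called. Other genes turned round and were called in the opposite direction on ICG-001, among them KRT15, with a difference of 2.0, SERPINB13, a squamous serpin, with 2.83, AGR2, a chaperone of mucus-secreting cells, with 2.62, and MIR205, with 1.86. The line differences on DMSO and on ICG-001 were set against each other in 1 fit over 12 arrays, which called 1602 probesets, or 12.2%.

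**Figure D5:**
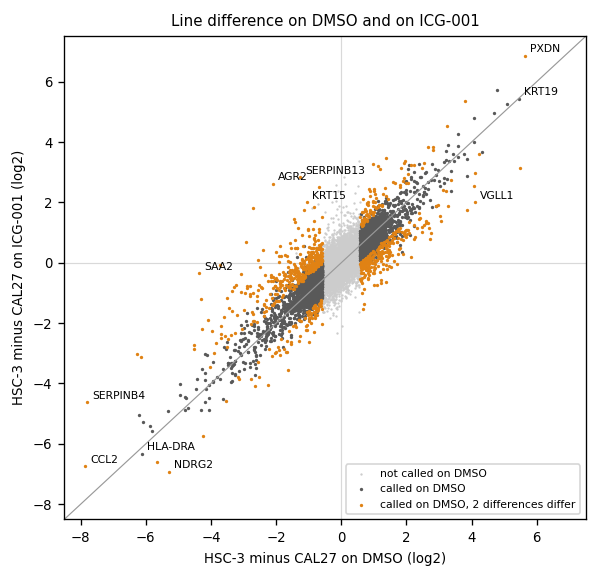
HSC-3 minus CAL27 on DMSO (log2, horizontal axis) against the same on ICG-001 (log2, vertical axis), 1 point for each tested probeset outside the Y chromosome, with a line where both are equal. Dark points were called on DMSO, and orange points were also called in the fit that sets the 2 differences against each other. KRT19 and HLA-DRA lie near the line, and AGR2, KRT15 and SERPINB13 lie above 0 on ICG-001 and below 0 on DMSO.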

How the data were processed

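Total RNA of HSC-3 and CAL27 cells on DMSO, with 3 arrays each, was hybridised to Affymetrix Human Gene 2.0 ST arrays. The deposited values are log2 intensities that the authors obtained by RMA with affy 1.36.1 in R 2.15.1, with a BrainArray chip definition of 1 probeset for each Entrez gene. RMA evens out the distributions of the arrays, so a change shared by all genes cannot be seen. The sources used here do not give the genome build of the probe definition.

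Of 23786 probesets, 22458 were named through the platform table. Probesets that exceeded the array median on any of the 6 arrays were fitted with lmFit and eBayes of limma 3.58.1 in R 4.3.3, on the 6 arrays alone, with Benjamini-Hochberg adjustment over all 13104. Calls needed an adjusted p no higher than 0.01 and a difference of 1.5-fold or more. The ICG-001 arrays were fitted in the same way on the same probesets.

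Named were the 15 called genes with the largest difference in each direction without overlap between arrays, up to 6 called members of each list with the largest differences, members that define the role of a list, and genes the study names. Provisional symbols, XIST and genes of the Y chromosome were left out of the first rule. PRR4, TFF3 and genes of chromosomal runs and families, taken up after their values were seen, fall outside these rules. The members and the 70 gene lists were chosen with earlier results of these data known. Alternatives were other filters, scalings, weights, priors and thresholds, a test against the fold itself, a replicate block and leaving out each array.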

Additional observations from a re-analysis of the deposited data

Results flagged for a closer look

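The line difference on DMSO (HSC-3 minus CAL27) was set against the line difference on ICG-001 in a fit over the 12 arrays of the 4 groups. Of 291 tested genes named here, 114 had differences that differed by 1.5-fold or more at an adjusted p no higher than 0.01 (limma). Over all tested probesets the share was 12.2%, but the named genes were chosen largely for their differences on DMSO. The values below are the difference on DMSO minus the difference on ICG-001, on the log2 scale. The 2 line differences of a gene had opposite signs in 29 of the 114. A value below 0 means that HSC-3 stood lower against CAL27 on DMSO than on ICG-001. Groups of 3 arrays were too small to test single arrays for outliers. Called on both in opposite directions were 6 genes, lower in HSC-3 on DMSO and higher on ICG-001. For these the value was -4.73 for AGR2, -4.09 for SERPINB13, -3.04 for KRT15, -2.90 for MMP13, -2.77 for ELF3 and -2.68 for MIR205. AGR2 differed by -2.11 on DMSO and 2.62 on ICG-001, KRT15 by -1.05 and 2.0, ELF3 by -1.43 and 1.34, and MMP13 by -1.15 and 1.75.

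A further 34 genes were called on DMSO and not on ICG-001. Those of defence and secretion had values of -4.01 for SAA2, -2.46 for CXCL2, -2.36 for LCN2, -1.83 for CXCL8, 1.79 for PDCD1LG2, -1.57 for SAA1, -3.62 for S100A7, -2.65 for S100A8, -1.32 for S100A9 and -1.35 for CD14. For lineage and matrix genes it was -0.94 for HOXD10, -0.78 for KLF4, -0.77 for KLK6, 0.62 for SNAI2 and -0.79 for COL5A1. Adhesion genes had -1.98 for MMP7, -1.29 for CLDN1, -1.27 for DSG3, -0.93 for CLDN4 and -0.66 for ITGB6. Signalling and growth genes had -2.09 for ID1, -2.04 for MIR222, -1.76 for DUSP1, 1.32 for CCNE2, -1.11 for EGR1, 1.08 for CCND2, 1.06 for CCND1, -0.94 for JUN, 0.88 for DUSP6, 1.35 for DKK3 and 0.67 for DKK1, and the others 1.5 for PTGS1, -1.03 for RIPK4 and 0.99 for MYEOV. Not called on DMSO and called on ICG-001 were 4 genes, with -2.21 for MIR21, -1.70 for NDRG1, -1.13 for CXCL1 and 0.92 for HELLS. For 3 genes called on neither the value was -0.65 for IFITM1, -0.62 for IFITM3 and 0.62 for KRT5.

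In other genes both line differences were called in the same direction and the gap between the lines was wider on DMSO. Choosing genes by the size of the DMSO difference favours a wider gap there, so how many fall on each side is no result. Immune genes among them had values of -2.50 for CFB, -2.41 for IDO1, -2.18 for CXCL10, -2.08 for CCL20, -1.66 for IL6, -1.25 for IFIT1, -1.25 for IFNGR1, -1.17 for OAS1 and -1.13 for CCL2. Further ones had -1.07 for C3, -0.96 for RSAD2, -0.83 for IFIT3, -0.80 for IRF1, -0.75 for IFIT2, -0.71 for TNFSF10, -0.67 for IL1A, -2.34 for SLPI, -1.94 for WFDC2, -1.79 for GBP2, -1.73 for APOL1, -3.10 for PIP and -3.02 for OLFM4. Lineage and adhesion genes had -3.26 for SERPINB3, -3.18 for SERPINB4, -1.64 for IGFBP3, -1.08 for ITGA4, -0.96 for ADAM28, -0.84 for ICAM1, 0.73 for EFNB1 and -0.72 for HSPG2. Signalling genes had 2.11 for VGLL1, 1.54 for SPRY4, 1.51 for SFRP5, 1.19 for LEF1, 1.16 for ETV4, -1.11 for FOSB, 1.06 for WNT5B and 0.97 for WNT7A. Metabolic genes and the rest had -2.05 for CYP24A1, -1.76 for RARB, 0.71 for CRABP2, -0.62 for PTGER4, 2.35 for OLFML3, 2.13 for MFAP5, 1.14 for AJAP1, 1.01 for ANO1, 0.86 for MIR31HG and 0.63 for MACROH2A2. The gap was wider on ICG-001 in 19 genes. For lineage and adhesion genes the value was then -1.92 for FLG, -1.10 for MMP1, -0.91 for MMP2, 0.89 for ALDH1A3, -0.80 for KLK10, -0.67 for KLF5 and -0.61 for TMPRSS11E. It was 1.64 for NDRG2, -1.22 for PXDN, 0.96 for CD74, 0.83 for HLA-DPA1 and 0.61 for GBP1 for genes of antigen presentation and others, and -1.55 for ABCC2, 1.49 for ALDH1L2, -1.18 for WNT5A, 1.05 for ACSL5, 0.94 for CCNE1, -0.82 for WNT10A and -0.77 for CTH for metabolic and growth genes. The cause of these differences was not tested.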

How the results depend on the processing

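On DMSO, 1979 genes were called higher and 1998 lower. Equal medians of the housekeeping genes gave 4201 higher and 1066 lower, an adjusted p up to 0.05 with no fold threshold gave 4207 and 3998, and a test against 1.5-fold itself gave 691 and 864. Leaving out 1 array gave 1888 to 1979 higher and 1898 to 1966 lower on DMSO, and 2050 to 2122 higher and 1943 to 2046 lower on ICG-001, against 2103 and 2007. The gene by gene alignment of the housekeeping genes was added after the data were seen, and 3556 of the 3977 calls remained under it. No call on DMSO turned to the opposite direction under any setting, and leaving out 1 array ended the call of 7 of the 253 called genes named in the report. The test against 1.5-fold itself ended the call of 48 of these 253, CDH1, CTNNB1, B2M, ITGB1 and CLDN4 among them.

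The median of the interferon list, -1.12, was -0.83 with all 6 arrays above the median, -0.79 with equal housekeeping medians, -1.21 gene by gene, -1.22 with array weights and -1.23 to -1.10 without 1 array. For class II genes, at -1.45, it was -1.68 with at least 3 arrays above the median, -0.80 with all 6, -1.12 with equal housekeeping medians, -1.55 gene by gene and -1.57 to -1.36 without 1 array. For chemokines, at -1.11, it was -0.85 with all 6 arrays, -0.78 with equal housekeeping medians and -1.27 to -1.02 without 1 array. For mucosal defence, at -2.44, it was -2.11 with equal housekeeping medians, -2.70 with array weights and -2.74 to -2.26 without 1 array. The Wnt list, at 0.48, had 0.65 with at least 3 arrays, 0.81 with equal housekeeping medians, 0.38 gene by gene and 0.45 to 0.53 without 1 array. Desmosome genes, at 0.30, had 0.63, 0.20 and 0.27 to 0.39 under the last 3 of these. Tight junction genes, at -0.23, had 0.10 with equal housekeeping medians and -0.29 to -0.16 without 1 array, and hypoxia and pH response genes, at -0.53, had -0.20 and -0.55 to -0.52.

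Genes that were not called could change sign. With equal housekeeping medians the difference was 0.26 for CDH3, 0.22 for CREBBP, 0.00 for CTNNA1, 0.07 for CXCL1, 0.08 for EPCAM, 0.16 for FASN, 0.30 for GBP3, 0.17 for GBP6, 0.07 for HELLS, 0.19 for IFITM1, 0.18 for IFITM3, 0.08 for IFNAR1, 0.28 for IFNAR2, 0.24 for JAK1, 0.29 for LAMB3, 0.16 for MIR21, 0.31 for NDRG1, 0.16 for OCLN, 0.05 for RFX5, 0.27 for TAP1, 0.16 for TAP2, 0.05 for THBS1, 0.02 for TJP1 and 0.30 for TYK2. Gene by gene it was -0.03 for CD274, -0.05 for GAPDH and -0.04 for PKM, and with array weights 0.03 for GBP3 and 0.00 for LAMB3. Leaving out 1 array also turned 4 of these, with ranges of -0.01 to 0.11 for GAPDH, -0.11 to 0.08 for GBP3, -0.28 to 0.19 for NDRG1 and -0.18 to 0.10 for TYK2.

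No pairing of wells by replicate number was seen, with deviations from the group mean correlated at -0.047, -0.015 and 0.014 for wells of the same number. Wells of different numbers gave -0.069 to 0.066. With 3 arrays a line, such correlations cannot exclude that wells were handled in pairs. With the replicate block 1985 genes were called higher and 1998 lower on DMSO, and 2081 and 1991 on ICG-001, and STING1 lost its call at an adjusted p of 0.0144. The number of arrays limits precision, with a median standard error of 0.0923. Genes under the array median on all 6 arrays were not tested.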
